A study of Mus musculus with 24 samples.

Results

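The dystrophin-glycoprotein complex was examined through 8 genes: Dmd, Utrn, Dag1, Sgca, Sgcb, Sgcd, Sspn and Dtna. The members were all probe sets on both array designs whose annotated symbol is one of these genes. The 8 genes are among 18193 named by the arrays, and the rule gave 25 of 45137 probe sets, 22 on the design called MA and 3 on the design called MB. A probe set is a group of short probes for 1 transcript, and its intensity is the deposited brightness value on a linear scale. Dtna had 7 probe sets, Dag1 and Dmd had 4 each, Sgcb and Utrn had 3 each, Sspn had 2, and Sgca and Sgcd had 1 each.

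The cells were C2C12, an established mouse myoblast line whose cells fuse into multinucleate myotubes in culture. There were 12 cultures in 4 groups of 3: GM at 25 mM, GM at 5 mM, DM at 25 mM and DM at 5 mM glucose, with each culture on 1 array of each design. In this line GM and DM usually stand for growth and differentiation medium, but the labels give the abbreviations alone, and neither the days in culture nor the other medium components. The study asked whether a restricted supply of calories alters how myoblasts differentiate. All groups share 1 cell line, so nothing here tests another source of muscle cells, and nothing in the labels says that the 3 replicates came from separate cultures. The p-values therefore reflect the spread among these samples alone, and that spread may be technical.

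The complex spans the muscle cell membrane. Dystrophin, or its close relative utrophin, binds cytoskeletal actin on the inside and the transmembrane part of dystroglycan at the membrane; the outer part of dystroglycan carries sugar chains that bind laminin in the matrix. The sarcoglycans and sarcospan form a subcomplex beside dystroglycan, and dystrobrevin and the syntrophins form an inner scaffold for signalling proteins. Loss of dystrophin or of a sarcoglycan causes muscular dystrophy in humans and mice.

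For orientation, the bases before the annotated start are shown for 3 members whose intensity was higher in DM, Dag1, Sgca and Sgcb, and for Utrn, whose intensity was not called different. Each window holds the 250 bases upstream of a transcript start in RefSeq, build GRCm38.p6, written 5′ to 3′ on the gene's strand. Capitals mark the 6-base E-box pattern CANNTG, searched on both strands, which is bound by the myogenic factors of the MyoD family among many others. All 4 genes lie on the minus strand: Dag1 at chr9:108263959-108264208, Sgca at chr11:94976328-94976577, Sgcb at chr5:73647738-73647987 and Utrn at chr10:12861736-12861985. The Utrn and Dag1 windows each precede a transcript start that lies inside the annotated gene, not the outermost start.
Dag1: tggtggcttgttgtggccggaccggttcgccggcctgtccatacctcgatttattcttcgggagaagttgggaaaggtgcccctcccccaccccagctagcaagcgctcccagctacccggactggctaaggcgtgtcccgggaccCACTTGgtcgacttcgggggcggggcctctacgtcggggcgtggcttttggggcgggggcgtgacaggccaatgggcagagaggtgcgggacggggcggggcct
Sgca: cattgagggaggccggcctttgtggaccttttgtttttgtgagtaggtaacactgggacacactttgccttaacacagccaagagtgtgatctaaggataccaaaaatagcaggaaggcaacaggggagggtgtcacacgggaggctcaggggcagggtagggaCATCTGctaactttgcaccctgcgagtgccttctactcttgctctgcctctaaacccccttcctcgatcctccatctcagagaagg
Sgcb: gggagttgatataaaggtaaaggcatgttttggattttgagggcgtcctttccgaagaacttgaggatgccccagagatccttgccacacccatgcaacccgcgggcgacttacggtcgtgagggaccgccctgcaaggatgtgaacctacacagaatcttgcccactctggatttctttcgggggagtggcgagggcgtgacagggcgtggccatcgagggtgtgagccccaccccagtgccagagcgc
Utrn: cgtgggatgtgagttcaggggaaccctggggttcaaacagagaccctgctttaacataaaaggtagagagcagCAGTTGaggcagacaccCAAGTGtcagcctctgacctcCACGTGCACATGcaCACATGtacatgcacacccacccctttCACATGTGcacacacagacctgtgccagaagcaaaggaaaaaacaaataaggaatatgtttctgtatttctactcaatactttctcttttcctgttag
The Dag1 window shown held 1 E-box, at position -104 from the start, and the Sgca window held 1, at -86. Another Dag1 window that overlaps the one shown, at chr9:108263816-108264065, also held 1, at -247. The Sgcb window held 0 and the Utrn window held 7, which overlap in part. Of all 32851 windows of this length in the RefSeq table, 66.2% held at least 1 E-box, so the members' counts are a description of these letters and no more. Windows were searched for every member but Dtna. None of these members' windows held CAGCTG (13% of all windows), CACCTG (17.2%), CCGGAA (12%) or a MEF2 pattern (0.508%). Among them, 1 of the 2 for Dmd held a CArG box, a pattern found in 1.47% of all windows.

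A control probe set for the ribosomal RNA called 18S split the 12 cultures. It read 2.59 to 9.16 on MA and 9.94 to 69.8 on MB in 4 cultures (GM 5 mM replicates 1 and 2, DM 25 mM replicate 3 and DM 5 mM replicate 2), against 90.2 to 375 and 640 to 2000 in the other 8. The labels name no batch, so this is described as a low-18S and a high-18S class. Results of the members and gene lists that move with this class are given with the class as a block, in the high-18S cultures alone, or both. The high-18S cultures leave 1 GM culture at 5 mM. For the lists of other genes these checks were chosen after seeing the data. Intensities had been scaled alike, with a trimmed mean of 150.049 to 150.066 on every MA array and 150.018 to 150.03 on every MB array, and the number of arrays limits the precision.

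The cells carried the markers of the line. All 6 myotube markers (Myog, Mymk, Myh3, Acta1, Ckm, Tnnt3) rose in DM at both glucose levels, all but Ckm having passed the filter for testing (a mean intensity above 35.5 on MA) only through DM, and their summed intensity ran from 83 to 221 over the GM cultures and from 18093 to 38775 over those in DM. Of 5 myoblast markers 3 rose (Des, Cdh15, Chrna1), with sums of 3968 to 4672 in GM and 8218 to 11270 in DM. Among markers of other cell types, 2 of 4 smooth muscle genes rose, Acta2 and Smtn, with sums of 3163 to 5183 in GM and 6105 to 15069 in DM, while the defining Myh11 stayed at or below 20.3 in every culture. Adipocyte sums were 344 to 436 in GM and 85.8 to 164 in DM, where Cebpa and Lpl fell at 25 mM and Cebpa at 5 mM, with Adipoq at or below 28. Blood and endothelial sums were 167 to 280 and 106 to 166, where Cd14 fell, with Ptprc at or below 27.2. Osteoblast sums were 234 to 476 and 134 to 331, Schwann and neural sums 99 to 226 and 90.8 to 195, and no marker of these was called. Their part in the members' results was not tested. In bulk samples, more cells of a type and more RNA per cell cannot be told apart.

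Among the 5 contrasts, members were called only in DM against GM. Dag1, Sgca, Sgcb and Dtna were higher in DM at 25 mM glucose and again at 5 mM, and Utrn and Sspn were not called at either level. At 25 mM the ratio of mean intensities, DM over GM, was 4.76 for Dag1, 5.84 for Dtna, 3.69 for Sgca and 3.69 for Sgcb. Dmd and Sgcd lay too low to test. Thus 4 of the 8 genes, or 4 of the 6 with a tested probe set, were called higher and 0 lower at each glucose level. Over all 12851 genes tested, 12.2% were called higher and 15.9% lower at 25 mM, and 9.5% and 13.7% at 5 mM. The median log2 change of the 6 tested members was 1.77 at 25 mM and 1.41 at 5 mM, beside -0.11 and -0.03 over all genes. A call means an adjusted p under 0.05 in limma, a linear model fitted to log2(intensity + 20) of all tested probe sets with Benjamini-Hochberg adjustment. Log2 changes below are on that scale, which understates changes of dim probe sets, and each gene is represented by its brightest tested probe set unless another is named. The 2 contrasts use different cultures and share none, but each shares a group with each glucose contrast. For a probe set both rest on 1 estimate of the spread over all 12 arrays, so their p-values are not independent.

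**Figure D1:**
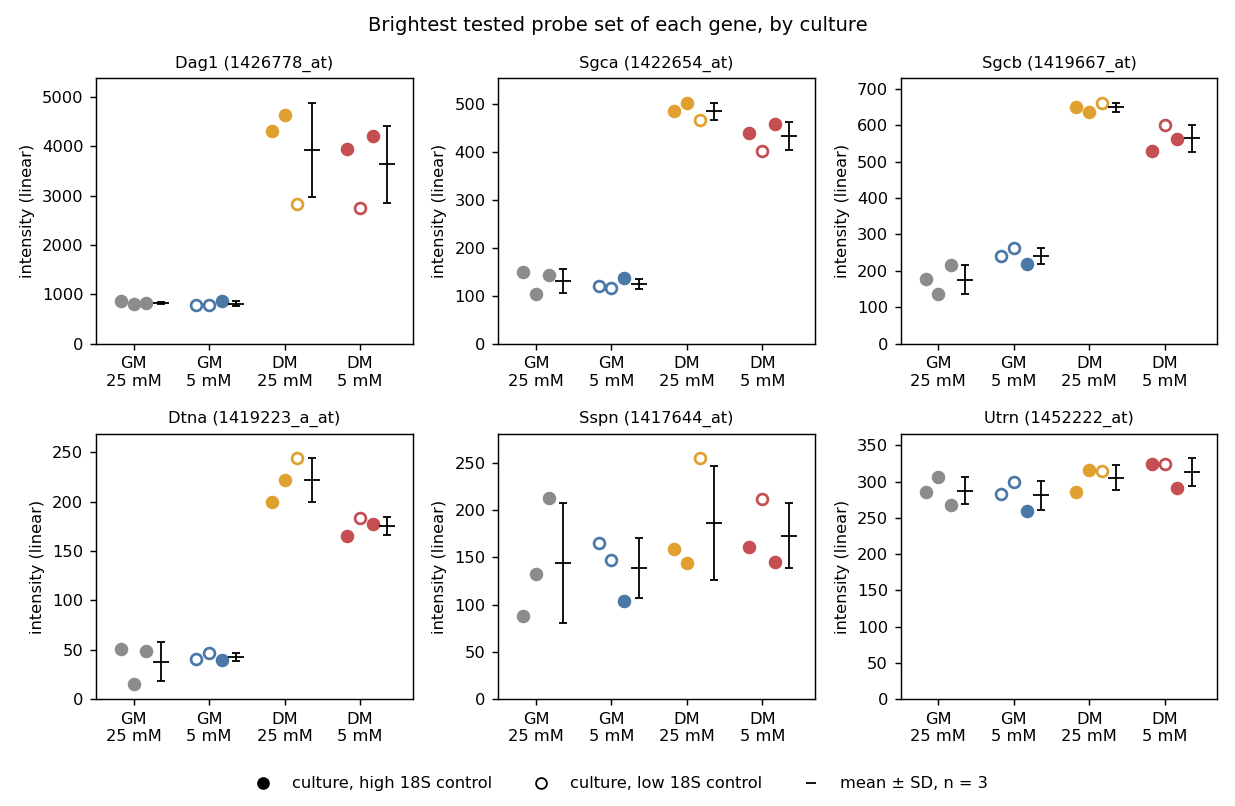
Intensity on a linear axis of the representative probe set of each of the 6 tested genes in every culture, by group; points are cultures, with the low-18S cultures drawn as open symbols, and bars are the group mean and SD (n = 3). Every DM culture lies above every GM culture for Dag1, Sgca, Sgcb and Dtna, and the groups overlap for Utrn and Sspn.

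Dag1 (Entrez 13138, chromosome 9, 108204861 to 108263977) encodes dystroglycan, the laminin receptor at the core of the complex. Its brightest probe set, 1426778_at, read 855, 800 and 817 in the 25 mM GM cultures and 778, 787 and 867 in those at 5 mM. In DM it read 4314, 4630 and 2833 at 25 mM and 3936, 2745 and 4209 at 5 mM. The GM cultures thus stayed within a narrow band, whereas the DM cultures spread widely without reaching it. The log2 change, DM against GM, was 2.19 (SE 0.19, adjusted p = 6.74e-07) at 25 mM and 2.11 (SE 0.19, adjusted p = 1.08e-06) at 5 mM.

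The lowest DM culture at each glucose level, 2833 and 2745, was the low-18S one. With the 18S class as a block the changes were 2.35 (SE 0.10) at 25 mM and 1.96 (SE 0.10) at 5 mM, and in the high-18S cultures alone they were 2.41 and 2.21, all called. The other Dag1 probe sets, 1423872_a_at, 1426779_x_at and 1456131_x_at, were called higher as well, with log2 changes of 1.64, 1.45 and 2.24 at 25 mM and 2.26, 1.99 and 2.41 at 5 mM. In the high-18S cultures alone 1426779_x_at changed by 1.20 at 5 mM, still called. They differed from the brightest one within GM: 1423872_a_at read 308, 346 and 340 at 25 mM and 140, 190 and 265 at 5 mM, and the lower pair at 5 mM were the low-18S cultures. The same held for 1426779_x_at (144 and 130 against 306) and 1456131_x_at (162 and 140 against 263). Names ending in _x_at mark probe sets that can also bind other transcripts, and those in _a_at probe sets shared by several transcripts of 1 gene.

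Sgca (Entrez 20391, chromosome 11, 94962777 to 94976327) encodes alpha-sarcoglycan, the sarcoglycan most restricted to striated muscle. Its 1 probe set, 1422654_at, read 149, 103 and 143 in the 25 mM GM cultures and 120, 117 and 137 in those at 5 mM. In DM it read 486, 503 and 466 at 25 mM and 440, 402 and 459 at 5 mM. The lowest DM culture was far above the highest GM culture, and the DM cultures lay close together. The log2 change was 1.75 (SE 0.14, adjusted p = 2.31e-07) at 25 mM and 1.65 (SE 0.14, adjusted p = 4.4e-07) at 5 mM, and it was 1.80 and 1.60 with the 18S class as a block.

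Sgcb (Entrez 24051, chromosome 5, 73632749 to 73647737) encodes beta-sarcoglycan, which pairs with delta-sarcoglycan to form the core of the subcomplex and is made in many tissues. Probe set 1419667_at read 177, 136 and 215 in the 25 mM GM cultures and 242, 262 and 218 in those at 5 mM. In DM it read 651, 637 and 662 at 25 mM and 529, 601 and 562 at 5 mM. DM and GM did not overlap. Within each medium the 2 glucose levels did not overlap either, with 5 mM the higher in GM and the lower in DM. Neither of these glucose differences was called. The log2 change of DM against GM was 1.79 (SE 0.14, adjusted p = 2.51e-07) at 25 mM and 1.16 (SE 0.14, adjusted p = 2.05e-05) at 5 mM.

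The second Sgcb probe set on MA, 1419668_at, was higher in DM by 1.38 on the log2 scale (adjusted p = 7.24e-05) at 25 mM and by 1.04 (adjusted p = 0.000951) at 5 mM. The probe set on MB, 1436678_at, read 211, 287 and 369 in GM and 628, 394 and 558 in DM at 25 mM. At 5 mM it read 300, 221 and 287 in GM and 535, 806 and 527 in DM. Here too no DM culture fell into the range of the GM cultures, but the spread was wider: the log2 change was 0.83 (SE 0.26, adjusted p = 0.0682, not called) at 25 mM and 1.14 (SE 0.26, adjusted p = 0.0111) at 5 mM. In the high-18S cultures alone, with 1 GM culture left at 5 mM, the latter was 0.84 with an adjusted p of 0.406.

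Dtna (Entrez 13527) encodes alpha-dystrobrevin, a cytoplasmic relative of dystrophin that anchors syntrophins, and its transcripts are spliced and initiated in several ways. Probe set 1419223_a_at read 50.8, 14.8 and 48.4 in the 25 mM GM cultures and 40.7, 47 and 39.5 in those at 5 mM. In DM it read 200, 222 and 244 at 25 mM and 165, 183 and 177 at 5 mM. Every DM culture was above every GM culture. In DM all 25 mM cultures were above all 5 mM ones, but that glucose change was not called (-0.31, SE 0.23, limma's adjusted p = 0.774). The log2 change of DM against GM was 2.13 (SE 0.23, adjusted p = 6.03e-06) at 25 mM and 1.65 (SE 0.23, adjusted p = 7.85e-05) at 5 mM.

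The 7 Dtna probe sets did not move alike. A second one, 1425292_at, rose from 17.2, 37.6 and 37.9 to 146, 150 and 187 at 25 mM and from 29, 34.6 and 13.8 to 134, 125 and 121 at 5 mM, with log2 changes of 1.85 and 1.71. Another, 1426066_a_at, changed by 0.65 (adjusted p = 0.0582) at 25 mM and rose by 1.08 (adjusted p = 0.00475) at 5 mM, a call lost in the high-18S cultures alone (1.27, adjusted p = 0.0546). Both passed the intensity filter only through the DM groups, so their higher level there was in part built in by the filter. Probe set 1427588_a_at, with group means of 89.5 and 90.3 in GM and 119 and 113 in DM, was not called (log2 changes 0.42 and 0.25), nor was 1429768_at (-0.03 and -0.25). The remaining 1456069_at and 1453625_at fell below the filter, with group means between 15.6 and 41.7. Which transcripts of Dtna each probe set reports was not examined, because probe positions were not used here.

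Sspn (Entrez 16651, chromosome 6, 145931873 to 145965225) encodes sarcospan, a small membrane protein that binds the sarcoglycans. Probe set 1417644_at read 88, 132 and 213 in GM and 159, 144 and 255 in DM at 25 mM. At 5 mM it read 165, 147 and 104 in GM and 161, 212 and 145 in DM. The groups overlapped at both levels. The log2 change was 0.36 (SE 0.27, adjusted p = 0.322, 95% interval -0.22 to 0.94) at 25 mM and 0.29 (SE 0.27, adjusted p = 0.487, 95% interval -0.29 to 0.87) at 5 mM, so a change of the size seen for Sgca lies outside both intervals. The low-18S culture was the highest of its DM group at each glucose level, at 255 and 212; with the class as a block the changes were 0.18 and 0.47, not called. The second probe set, 1417645_at, was dim at 27.1 to 52.9 and was not called (0.03 and 0.46, adjusted p = 0.094 at 5 mM). Its 5 mM cultures read 27.1, 34 and 33.6 in GM and 52.9, 50.1 and 49.5 in DM, without overlap.

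Utrn (Entrez 22288, chromosome 10, 12382187 to 12869888) encodes utrophin, the relative of dystrophin found along the whole membrane of developing muscle and later concentrated at neuromuscular junctions. Probe set 1452222_at read 286, 306 and 268 in GM and 285, 316 and 314 in DM at 25 mM. At 5 mM it read 283, 300 and 259 in GM and 324, 324 and 291 in DM. Its root mean square deviation over the 12 cultures, 0.09 on the log2 scale, was the smallest of the 6 tested members, and its groups overlapped at both levels. The log2 change was 0.08 (SE 0.11, adjusted p = 0.599, 95% interval -0.16 to 0.33) at 25 mM and 0.15 (SE 0.11, adjusted p = 0.382, 95% interval -0.10 to 0.39) at 5 mM. The dimmer 1427569_a_at read 63.3, 82.7 and 64.7 in GM and 94.4, 126 and 92.5 in DM at 5 mM, without overlap, and its change of 0.46 was not called (adjusted p = 0.147). With the 18S class as a block it was 0.58 with an adjusted p of 0.0236, and in the high-18S cultures alone 0.42 with an adjusted p of 0.404. The remaining Utrn probe set, 1426892_at, read 1.18 to 13.9 and was not tested.

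Over the 17 tested probe sets of the 6 genes, 9 were called higher at 25 mM and 11 at 5 mM, and 0 lower at either level. Over all 27081 tested probe sets, 9.83% and 7.52% were called higher. Probe sets for 1 gene share their transcripts and are no replicates of each other.

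**Figure D2:**
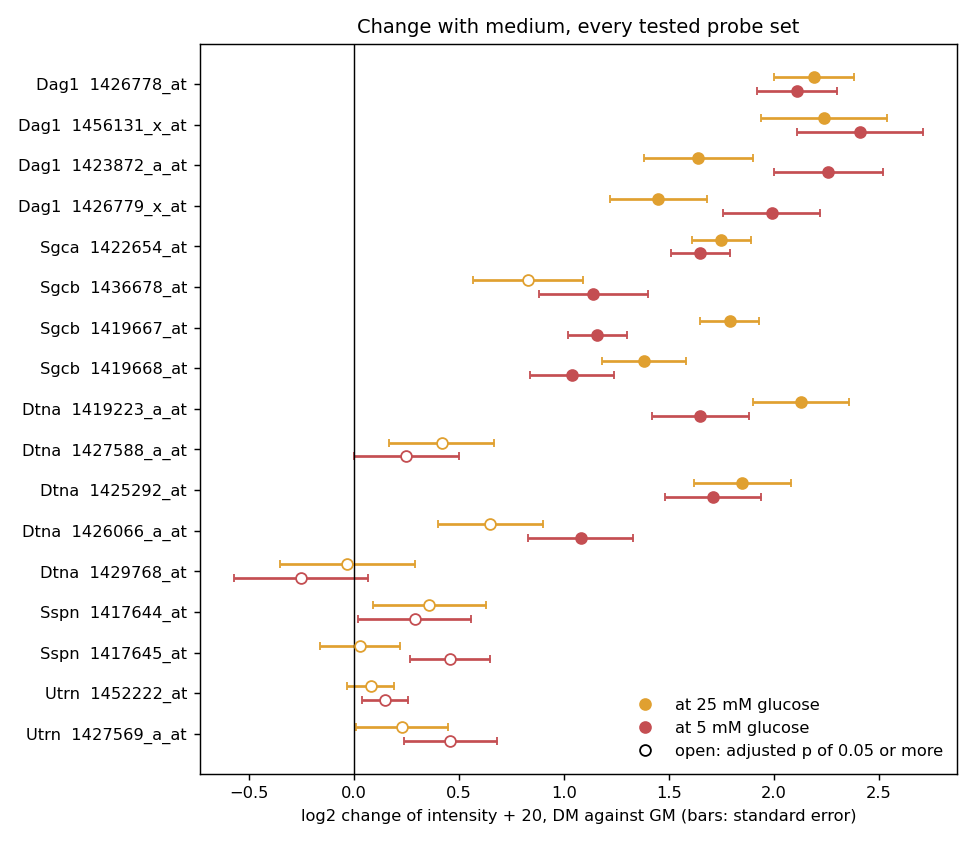
Log2 change of intensity + 20, DM against GM, of all 17 tested member probe sets at 25 mM and at 5 mM glucose; points are estimates, bars are standard errors, and filled points passed an adjusted p of 0.05. All Dag1 and Sgca probe sets are filled at both levels, those of Utrn and Sspn are open, and Sgcb and Dtna hold both kinds.

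Dystrophin itself could not be followed. The 4 Dmd probe sets (Entrez 13405, chromosome X, 82814664 to 85205050) read 4.85 to 32.3 (1417307_at), 1.25 to 24.6 (1430320_at), 0.681 to 15.5 (1448665_at) and 5.82 to 82.2 (1443315_at on MB) over the 12 cultures. The filter on mean intensity stood at 35.5 on MA and 63.7 on MB, and the 4 lay at the 21.9, 11.8, 7.54 and 20.5 percentiles of their designs. The brightest on MA, 1417307_at, averaged 11.2 ± 9.17 (SD, n = 3) in GM and 9.5 ± 7.76 in DM at 25 mM, and 16.5 ± 2.33 and 23.8 ± 7.81 at 5 mM. In limma fitted without the filter, its log2 change was -0.07 (adjusted p = 0.869) at 25 mM and 0.25 (adjusted p = 0.62) at 5 mM. No change was detected at these intensities, which does not show that dystrophin transcript was absent or constant.

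Sgcd (Entrez 24052, chromosome 11, 46971077 to 47989451) encodes delta-sarcoglycan, the partner of beta-sarcoglycan. Its 1 probe set, 1450805_at, read 14.6 to 37.4 over the 12 cultures and lay at the 31.1 percentile of MA. Group means were 30.7 ± 7.03 and 21.0 ± 2.84 in GM and 22.3 ± 7.06 and 21.9 ± 3.84 in DM, at 25 and 5 mM in turn. Without the filter, the log2 change was -0.26 (adjusted p = 0.431) at 25 mM and 0.03 (adjusted p = 0.962) at 5 mM, so of this pair a comparison of the media could be made only for Sgcb.

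**Figure D3:**
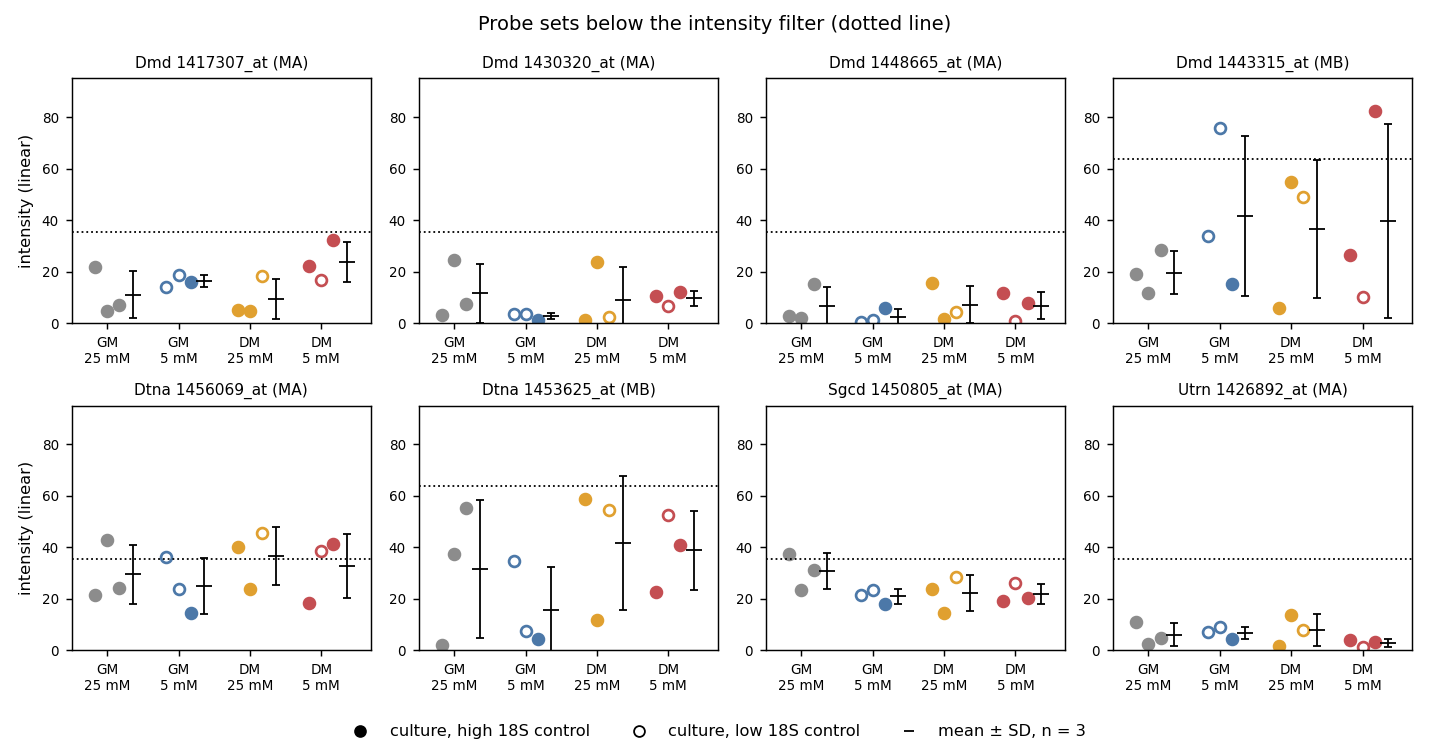
Intensity on a linear axis of the 8 member probe sets that fell below the filter, in every culture; points are cultures, low-18S cultures are open, bars are the group mean and SD (n = 3), cut at 0, and a dotted line marks the filter at 35.5 on MA and 63.7 on MB. Single cultures cross the line, as for 1443315_at of Dmd at 82.2, but the mean of no probe set over the 12 cultures does.

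No member was called for glucose. Comparing 5 mM with 25 mM, 0 of the 6 tested genes were called in GM, where 0.00778% of all genes were called, and 0 in DM, where 1.35% were. At an unadjusted p under 0.05 the numbers by representatives were 1 of 6 members in GM and 0 in DM, beside 1213 and 1232 of the 12851 genes. Over the 17 tested member probe sets they were 3 in GM and 0 in DM. Among the 3 were 1423872_a_at and 1426779_x_at of Dag1, with log2 changes of -0.72 and -0.55 (limma's unadjusted p = 0.016 and 0.0344). With the low and high class of the ribosomal control as a block these changes were -0.26 and -0.40. The Dag1 probe set 1456131_x_at changed by -0.44, and by 0.13 with the block. The representative of Dag1 changed by -0.02, and by 0.28 with the block. By representatives the 1 member was Sgcb, which was 0.43 higher on the log2 scale at 5 mM in GM (SE 0.14, limma's adjusted p = 0.404). Without replicate 2 of GM at 25 mM the estimate was 0.27, and the other Sgcb probe sets gave 0.10 (1419668_at) and -0.08 (1436678_at). In DM its change was -0.20 (SE 0.14, adjusted p = 0.745). The intervals of the other representative probe sets bound what could have been missed for those probe sets alone. In DM they were -0.52 to 0.31 for Dag1, -0.45 to 0.14 for Sgca, -0.81 to 0.19 for Dtna, -0.65 to 0.51 for Sspn and -0.21 to 0.28 for Utrn. Wider bounds held for the other Dag1 probe sets in DM: -0.67 to 0.46 for 1423872_a_at, -0.51 to 0.49 for 1426779_x_at and -0.91 to 0.37 for 1456131_x_at.

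The interaction asks whether the step from GM to DM differed between the glucose levels. It was called for 0 of 6 members and for 0.467% of all genes, and at an unadjusted p under 0.05 for 1 of 6 members and 1399 genes. The 1 member was again Sgcb, whose step to DM was smaller at 5 mM, with an interaction of -0.63 (SE 0.20, 95% interval -1.06 to -0.20, limma's adjusted p = 0.249). Its other probe sets gave -0.34 (1419668_at) and 0.31 (1436678_at), so the 3 did not share a direction. For Dtna the estimate was -0.48 (SE 0.33, adjusted p = 0.556) and for Dag1 -0.08 (SE 0.27, adjusted p = 0.919).

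Other subunits of the complex moved in both directions. Of the 7 tested, 2 rose and 3 fell in DM at 25 mM, and at 5 mM 2 rose and 1 fell. Their medians were 0.13 and 0.06. The share of all genes called in either direction was 28.1% at 25 mM and 23.2% at 5 mM. Cav3, which encodes the muscle caveolin, rose from 8.47 ± 0.803 to 497 ± 43.2 at 25 mM (SD, n = 3), a log2 change of 4.18 (SE 0.19, adjusted p = 6.7e-10), and by 4.15 at 5 mM. Sntb1, encoding beta-1-syntrophin, rose by 2.31 (adjusted p = 0.000182) and 2.09. Sntb2, encoding beta-2-syntrophin, went the other way, from 60.6 ± 16.6 to 12.2 ± 3.36 at 25 mM, with log2 changes of -1.31 (adjusted p = 0.000557) and -1.59. Cav3 and Sntb1 passed the filter only through DM, Sntb2 only through GM, and Dtnb only through GM at 25 mM, so their differences were in part built in by it. Sgce encodes epsilon-sarcoglycan, the relative of alpha-sarcoglycan made in many cell types. It fell by 1.07 on the log2 scale at 25 mM (adjusted p = 0.00264) and stood at 0.03 at 5 mM. Its GM mean was 113 ± 13.2 at 5 mM against 197 ± 48.7 at 25 mM. Neither that glucose change in GM (-0.68, adjusted p = 0.42) nor the interaction (1.09, adjusted p = 0.218) was called by limma. With the 18S class as a block the glucose change in GM was -0.35. Thus alpha-sarcoglycan and epsilon-sarcoglycan changed in opposite directions at 25 mM. Dtnb, encoding beta-dystrobrevin and named after its values were seen, was at the threshold at 25 mM (-0.82, adjusted p = 0.0499) and not called with the 18S class as a block (adjusted p = 0.0694).

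Of the 13 tested enzymes that build the sugar chains of dystroglycan, at 25 mM 0 rose and 3 fell, with a median of -0.08, while at 5 mM 1 rose and 0 fell, with a median of 0.05. Over all genes 28.1% were called in either direction at 25 mM and 23.2% at 5 mM. Pomt1, which starts the chain, had a log2 change of -0.68 (adjusted p = 0.0198), Pomk, a kinase of the chain, one of -0.68 (adjusted p = 0.0296) and Dpm2, a subunit of the mannose donor synthase, one of -0.38 (adjusted p = 0.035). At 5 mM the called gene was Dolk, the dolichol kinase, at 0.49 (adjusted p = 0.0334). In the high-18S cultures alone, 1 gene was called at 25 mM, Pomk, and 0 at 5 mM, where Dolk had an adjusted p of 0.267; of all genes 25.8% and 14% were called there.

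Among matrix ligands, 10 of 12 were tested, and at each glucose level 1 rose and 2 fell, with medians of -0.25 and 0.05. Calls in either direction covered 28.1% of all genes at 25 mM and 23.2% at 5 mM. Lama2, the laminin alpha chain of the muscle basement membrane, rose by 1.02 (adjusted p = 0.000523) at 25 mM and 1.43 at 5 mM. Nid1, encoding nidogen, which links laminin to collagen, fell from 630 ± 72.6 to 192 ± 30.5 at 25 mM, with log2 changes of -1.62 (adjusted p = 1.11e-05) and -2.12. Lama5 was lower at 25 mM (-0.66, adjusted p = 0.0132), and Lamc1 at 5 mM (-0.44, adjusted p = 0.0359). With the 18S class as a block the number called went from 3 to 4 at 25 mM, from 3 to 5 at 5 mM, from 0 to 4 for glucose in DM and from 0 to 2 for the interaction (Lama5 and Bgn). The share of all genes called under the same block was 32.8%, 28.2%, 3.28% and 0.724% in turn. In the high-18S cultures alone 2 were called for glucose in DM (0.903% of all genes) and 0 for the interaction, where Lama5 had an adjusted p of 0.359 and Bgn one of 0.0544. Lamc1 at 5 mM was not called there either (-0.56, adjusted p = 0.0854).

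The last list held 20 membrane and cytoskeletal partners, 19 of them tested. At 25 mM 7 rose and 6 fell, and at 5 mM 6 rose and 4 fell, with medians of 0.02 and 0.07. Of all genes, 12.2% were called higher and 15.9% lower at 25 mM, and 9.5% and 13.7% at 5 mM. Flnc, encoding the muscle filamin that binds the sarcoglycans, rose by 1.88 (adjusted p = 3.62e-06) at 25 mM and 2.01 at 5 mM. Itga7, the other laminin receptor of muscle, rose by 1.41 (adjusted p = 2.33e-06) and 1.48, and Dysf, encoding the membrane repair protein dysferlin, by 1.33 (adjusted p = 9.41e-05) and 1.92. Anxa1, a membrane-binding annexin, fell by 1.85 on the log2 scale at 25 mM (adjusted p = 1.73e-07) and by 1.34 at 5 mM. With the low and high class of the ribosomal control as a block, Anxa2 and Plec were also called lower at 5 mM. Their log2 changes were then -0.54 (limma's adjusted p = 0.00338) and -0.30 (adjusted p = 0.0148), against -0.34 and -0.02 without the block. In the cultures of the high class alone they were -0.57 and -0.22.

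Cavin4, a muscle protein of caveolae, was the gene of the 4 lists with a called interaction. It rose in DM to 1469 ± 192 at 25 mM and to 855 ± 66.5 at 5 mM, from 467 ± 50.9 and 525 ± 48.7 in GM (SD, n = 3). Its glucose change in DM was -0.76 (adjusted p = 0.00715), and the interaction was -0.93 (SE 0.19, adjusted p = 0.0444). Capn3, a muscle protease, was also lower at 5 mM in DM (-0.93, adjusted p = 0.0195). In the high-18S cultures, which leave 1 GM culture at 5 mM, neither that change (-0.95) nor the Cavin4 interaction (-0.84) was called. The Cavin4 glucose change in DM stayed called there (-0.82). With the class as a block, limma's adjusted p was 0.00674 for Capn3 in DM, 0.0157 for the Cavin4 interaction and 0.00139 for Cavin4 in DM. Under the block Anxa1 was called as well, higher at 5 mM in DM (0.35, adjusted p = 0.0384, against 0.352 without the block). Without the block and over all 12 cultures, limma called no gene of the other 3 lists for glucose or the interaction. For glucose in DM an unadjusted p under 0.05 was reached by 4 of 10 matrix ligands and 5 of 19 partners. It was reached by 0 of 7 subunits and 0 of 13 enzymes. For the interaction the numbers were 3 ligands, 6 partners, 1 subunit and 0 enzymes. Of all 12851 genes 1232 reached it for glucose in DM and 1399 for the interaction. For glucose in GM no gene of the 4 lists was called. There 2 of 7 subunits, 1 of 13 enzymes, 1 of 10 ligands and 1 of 19 partners had an unadjusted p under 0.05. Of all 12851 genes 1213 had one.

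**Figure D4:**
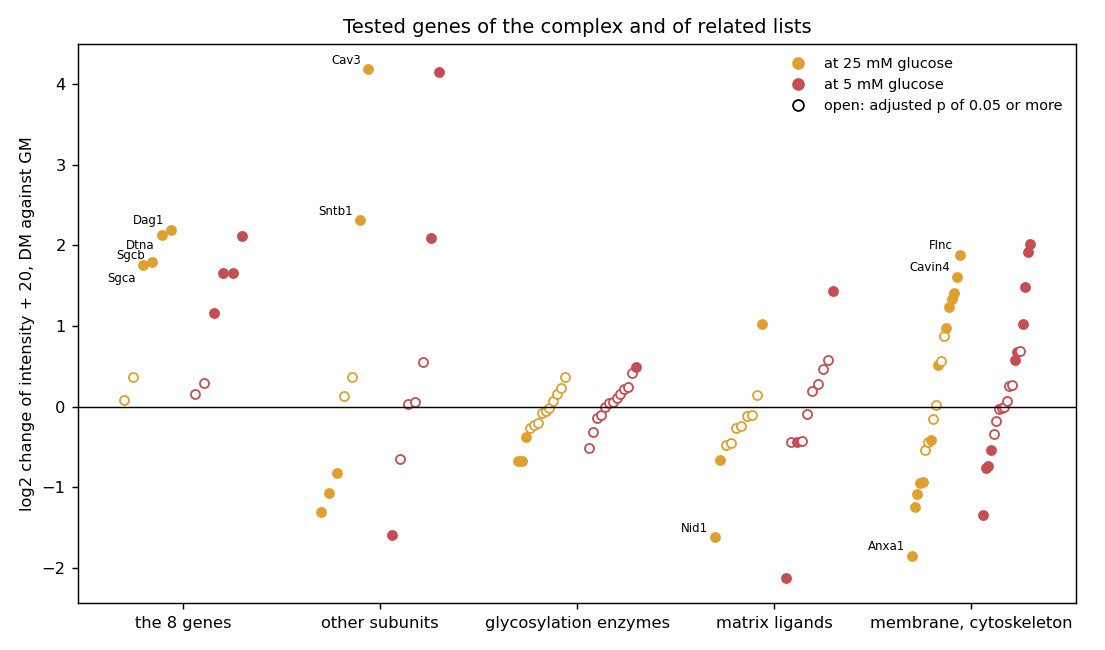
Log2 change of intensity + 20, DM against GM, of the tested genes among the 8 members and in the 4 lists, at 25 mM and 5 mM glucose; each point is 1 gene, ordered by its change within a list, and filled points passed an adjusted p of 0.05. The members have 4 filled points above 0 and none below at each level, while the other lists hold filled points on both sides or few.

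The genes most like each member were taken as those with the smallest root mean square (RMS) difference in log2(intensity + 20) over the 12 cultures, each gene centred on its own mean, among 8116 genes on MA. For Dag1 they were Tmem37 (0.16), Flnc (0.17) and Tpm1 (0.18), where Dag1 itself had an RMS of 1.1 about its mean. For Sgca they were Orai1, Cdc34 and Ankrd1 (0.17 each, own value 0.86), and for Sgcb Hip1 (0.14), Chpt1 (0.16) and Josd2 (0.19, own value 0.77). For Dtna they were Capn6 (0.17), Pacsin3 (0.22) and Ankrd1 (0.22, own value 0.98). Flnc was thus close to Dag1, and Ankrd1 to both Sgca and Dtna, over cultures that differ mainly in medium. For Sspn the nearest gene was Pcyox1 (0.19, own value 0.36). For Utrn it was Plcl2 at 0.073, almost as far away as the spread of Utrn itself reached (0.09), so likeness there says little.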

How the data were processed

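The members and lists were chosen with earlier results of these data known. Each array's deposited file gives 1 linear intensity per probe set; how the authors made them is not given in the sources used here. After removal of the 64 control probe sets of a design, those with a 12-array mean above the 40th percentile were kept for testing: 13575 of the 22690 on MA and 13506 of the 22575 on MB, controls counted in both totals. The trimmed means ignored 2% of values at either end. Names came from the platform annotation, and probe sets naming several genes were not used. MA and MB were modelled apart in limma 3.58.1 (R 4.3.3, statmod 1.5.0) on log2(intensity + 20), with 4 group means, moderated variances with a trend and 8 residual degrees of freedom. Tests were two-sided, and Benjamini-Hochberg adjustment ran within a design. The code was tested on simulated data.

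The brightest tested probe set with only that gene's name stood for a gene, MA first, which gave 12851 genes. All 8 members were described, and from each list at most 4 called genes per contrast, by size of change. Alternatives were other pseudocounts (1 and 64), filters, centring, quantile normalization, array weights, other probe sets, a replicate block, and each culture left out. Promoter windows came from RefSeq (GRCm38.p6); protein sequences were not used here.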

Additional observations from a re-analysis of the deposited data

How the results depend on the processing

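Under each of 24 other settings, Dag1, Sgca, Sgcb and Dtna stayed higher and called in DM at both glucose levels, and Utrn and Sspn stayed uncalled, when each gene's brightest probe set stood for it. Leaving out 1 culture kept 4 genes called at each level and 0 for glucose and the interaction. Array weights gave 1 called member for glucose in GM, Sgcb (0.43, adjusted p = 0.0472). Replicate numbers did not pair the cultures: deviations of same-numbered cultures correlated at -0.56 to 0.52 (MA) and -0.22 to 0.24 (MB), and 1 and 3 of 12 cultures correlated best with their own number. With a replicate block the called members were 4, 4, 0, 0 and 0 for the 5 contrasts. Taking the second brightest probe set called 3 at each level. All probe sets of Dmd and Sgcd lie below the filter, where only a large change could be seen.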
